A study of Mus musculus with 27 samples.

Results

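Transcript levels of 8 genes of fatty acid uptake and binding were followed in mouse muscle through injury and regeneration. The genes were taken from the deposited tables by name: Lpl, Gpihbp1, Cd36, Slc27a1, Acsl1, Fabp3, Fabp4 and Lipa, 8 of the 55852 entries of the table of injured muscle and of the 55677 entries of the table with uninjured muscle. Each was present once in both tables, and all 8 passed the filter on low values. The 24 injured libraries came from male C57BL/6J wild-type mice (WT) and littermates with a global deletion of Gsdme (KO), which encodes the pore-forming protein gasdermin E, at 1, 4, 7 and 14 days (D1, D4, D7 and D14) after injection of cardiotoxin, a venom peptide that lyses muscle fibers (n = 3 for each genotype and day). Another 3 libraries were made from uninjured WT muscle, which the study took from the opposite leg of injured mice on D1. No uninjured KO muscle was among the samples. The uninjured and WT D1 libraries may thus come from the same mice, which the labels do not state, and the main test took them as separate groups. The study names the gastrocnemius and the deposited design names thigh muscle, and the genotype field of the samples titled KO reads knockdown. The labels give no age.

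Fatty acids reach muscle in part as triglyceride in circulating lipoproteins. Lipoprotein lipase, encoded by Lpl, is made by muscle fibers and adipocytes, is carried to the capillary surface by the endothelial anchor GPIHBP1, and frees fatty acids there. CD36 and the transport protein FATP1 (Slc27a1) promote their passage into cells, ACSL1 traps them as acyl-CoA for oxidation or storage, and the binding proteins FABP3 and FABP4 carry them in the cytosol, FABP3 mainly in oxidative muscle fibers and FABP4 mainly in adipocytes and capillary endothelium. Lysosomal acid lipase, encoded by Lipa, instead frees fatty acids from lipid that a cell has engulfed, and is high in macrophages.

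The genes lie apart from each other in the genome (GRCm38, GENCODE M21). Lpl lies at chr8:68880491-68907448, Slc27a1 at chr8:71568882-71587302 and Acsl1 at chr8:46471037-46536051, all on the plus strand. Gpihbp1 (chr15:75596628-75599481) and Fabp3 (chr4:130308595-130315463) are also on the plus strand, and Cd36 (chr5:17781690-17888801), Fabp4 (chr3:10204088-10208576) and Lipa (chr19:34492318-34527474) are on the minus strand. Fabp3 overlaps the ends of Zcchc17 and Gm10570 on the opposite strand, which reached 43.0 and 1.84 TPM in the injured libraries, and its processed copy Fabp3-ps1 reached 3.89 TPM. Since strand use was not stated, reads in these overlaps cannot be assigned with certainty.

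Promoter sequences (300 bases around a gene start, RefSeq, GRCm38.p6) were matched for Cd36, Slc27a1, Acsl1, Fabp3 and Lipa, 5 of the 8 genes. Those shown belong to the gene that rose most after injury (Lipa), the gene that fell most (Fabp3), and the gene with the lowest p between genotypes (Cd36). Capitals mark matches on either strand to AGGTCA, the core element of nuclear receptors such as the PPARs, to TATAAA, the TATA box, and to GGGCGG, the SP1 box.
Lipa, chr19:34527425-34527724, minus strand: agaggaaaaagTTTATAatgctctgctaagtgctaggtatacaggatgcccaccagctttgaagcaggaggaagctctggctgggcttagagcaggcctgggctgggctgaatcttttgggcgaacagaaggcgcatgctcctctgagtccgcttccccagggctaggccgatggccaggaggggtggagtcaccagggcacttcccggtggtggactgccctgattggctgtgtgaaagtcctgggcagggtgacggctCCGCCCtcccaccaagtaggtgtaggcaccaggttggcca
Fabp3, chr4:130308488-130308787, plus strand: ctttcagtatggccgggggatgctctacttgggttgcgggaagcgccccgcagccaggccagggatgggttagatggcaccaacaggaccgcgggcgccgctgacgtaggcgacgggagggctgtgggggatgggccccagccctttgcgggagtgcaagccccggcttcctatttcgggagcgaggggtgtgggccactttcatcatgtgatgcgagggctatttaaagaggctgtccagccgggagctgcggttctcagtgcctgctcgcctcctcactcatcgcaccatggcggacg
Cd36, chr5:17835847-17836146, minus strand: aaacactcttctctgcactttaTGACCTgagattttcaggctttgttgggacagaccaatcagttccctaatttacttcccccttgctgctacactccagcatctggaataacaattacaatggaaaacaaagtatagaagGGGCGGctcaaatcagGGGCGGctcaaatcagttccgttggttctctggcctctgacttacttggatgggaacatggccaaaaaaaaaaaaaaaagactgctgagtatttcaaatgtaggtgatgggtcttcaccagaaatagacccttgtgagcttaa
The Cd36 window held 1 AGGTCA element and 2 SP1 boxes, and its start lies inside the annotated span of the gene. The Lipa window held 1 SP1 box and 1 match to TATAAA, and the Fabp3 window held none of these letters. Among all 32851 promoters of this length, 16.3% held AGGTCA, 13.6% TATAAA and 35.7% GGGCGG. Exact AGGTCA elements repeated with 1 base between, the PPAR arrangement, were in 0.0396% of promoters and in no member window. At so low a share, their absence from a few windows says little. CACGTG, the E-box that TFEB binds in lysosomal genes, was in 7.15% of promoters and in 1 of the 3 windows of Slc27a1, and TATTTATA, a core of the MEF2 site of muscle genes, was in 1.70% of promoters and in no member window. These matches are descriptions of the letters and not evidence of binding.

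Some facts of the libraries bear on every result. The deposited values were in TPM, a unit in which reads are divided by the length of each gene and every library sums to an equal total, so that levels can be compared between genes while the depth of a library is unknown. The 50 most abundant genes held 25.4% to 61.4% of a library. Gsdme itself was read in all KO libraries at 0.95 to 2.17 TPM and in injured WT libraries at 1.46 to 4.85 TPM, with every KO library below every WT library on D1, D4 and D7 and overlap on D14. KO D4 replicate 2 stood apart from the other KO D4 libraries, with Adgre1, a macrophage marker, at 12.7 TPM against 87.4 and 74.7. The endothelial markers Pecam1 and Cdh5 were at 40.7 TPM or more in every library, and the fast-fiber myosin gene Myh4 at 1564 TPM or more. The slow-fiber myosin gene Myh7 varied widely within groups. It was at 0.33 to 3.12 TPM in WT D1 replicates 2 and 3, WT D4 replicate 1, KO D1 replicate 3 and KO D4 replicate 3, and at 54.2 TPM or more in all others.

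On D1, WT injured muscle was compared with uninjured muscle to ask how the acute lesion changed these genes. Lipa rose, Fabp3 and Acsl1 fell, and the other 5 members did not pass the test (limma, adjusted p under 0.05 over 13041 genes, described as called below). Thus 3 of 8 members were called, beside 61.1% of all genes tested. Lipa was at 4.93, 4.55 and 5.36 TPM in the control libraries and at 33.7, 46.9 and 13.0 TPM on D1, and the groups did not overlap (log2 difference 2.27 ± 0.40, SE, adjusted p = 0.00314). Fabp3, the most abundant member in uninjured muscle, was at 1149, 809 and 1158 TPM in the controls and at 587, 180 and 203 TPM on D1. All 3 injured libraries were lower, and the log2 difference was -1.88 ± 0.42 (adjusted p = 0.00649). Acsl1 went from 80.3 ± 23.3 to 42.9 ± 10.8 TPM (mean ± SD, log2 difference -0.87 ± 0.27, adjusted p = 0.0236). This call was lost without WT D1 replicate 1 or 2 or control replicate 1 or 3 (adjusted p from 0.0564 to 0.0876), and Gpihbp1 was called without WT D1 replicate 1 (-0.53, adjusted p = 0.0408).

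The remaining 5 members did not pass the test on the TPM scale. The lipase gene Lpl was at 69.8 ± 13.3 TPM in control and 72.5 ± 33.9 TPM on D1, its anchor Gpihbp1 at 78.7 ± 5.7 and 60.5 ± 10.9, Cd36 at 102 ± 22.7 and 95.3 ± 31.3, Slc27a1 at 34.3 ± 7.1 and 28.0 ± 3.6, and Fabp4 at 292 ± 30.9 and 325 ± 21.0. In each of these 5 genes the groups overlapped. Without overlap, 1 member lay higher and 2 lower, beside 8375 higher and 917 lower of all 13041 genes. The scale itself moved, since all genes together had a median log2 difference of 0.66, with 7229 genes called higher and 736 lower. After median-of-ratios scaling, which brought that median to 0.00 and the calls to 2770 higher and 2763 lower, 6 of 8 members were called, with Gpihbp1 (-1.17), Cd36 (-0.92) and Slc27a1 (-1.04) now lower together with Acsl1 (-1.65) and Fabp3 (-2.67), and Lipa higher (1.55). Fabp4 changed sign between the scales, from 0.16 to -0.63, and was called on neither. On both scales, 7 members lay below the median gene and Lipa alone lay above it, as the plot of the D1 difference shows.

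**Figure D1:**
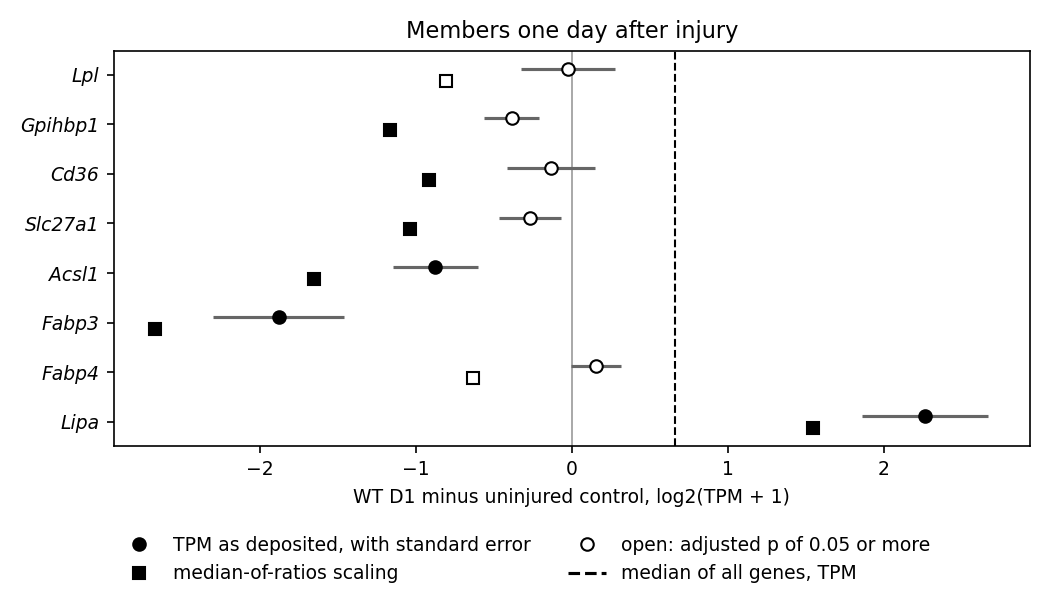
Log2 difference of each member between WT muscle on D1 and uninjured control (n = 3 libraries each, x axis, log2(TPM + 1)). Circles give deposited TPM with the standard error and squares give the values after median-of-ratios scaling, filled where the adjusted p was under 0.05, and the dashed line is the median of all genes at 0.66. Lipa at 2.27 is the only member to the right of it.

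On D1 and in WT D4 muscle, Fabp3 was lowest in libraries low in a slow-fiber marker. Among the WT D1 libraries, Fabp3 was at 586 TPM where Myh7 was at 153 TPM and at 180 and 203 TPM where Myh7 was at 1.30 and 0.33 TPM. The KO D1 libraries were alike in this, with Fabp3 at 581 and 828 TPM where Myh7 was at 72.4 and 438 TPM, and at 198 TPM where Myh7 was at 0.39 TPM. On D4, the WT library with Myh7 at 3.12 TPM had Fabp3 at 305 TPM, against 1077 and 1102 TPM in the other two. Uninjured libraries had Myh7 at 108 to 330 TPM. Over the whole slow-fiber list of 8 genes, summed TPM was 3852 to 8088 in the controls and 154 to 3705 in the WT D1 libraries, whereas the fast-fiber list of 8 genes was at 128452 to 150219 and 62249 to 130431. The part of fiber type in the Fabp3 difference was not tested.

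**Figure D2:**
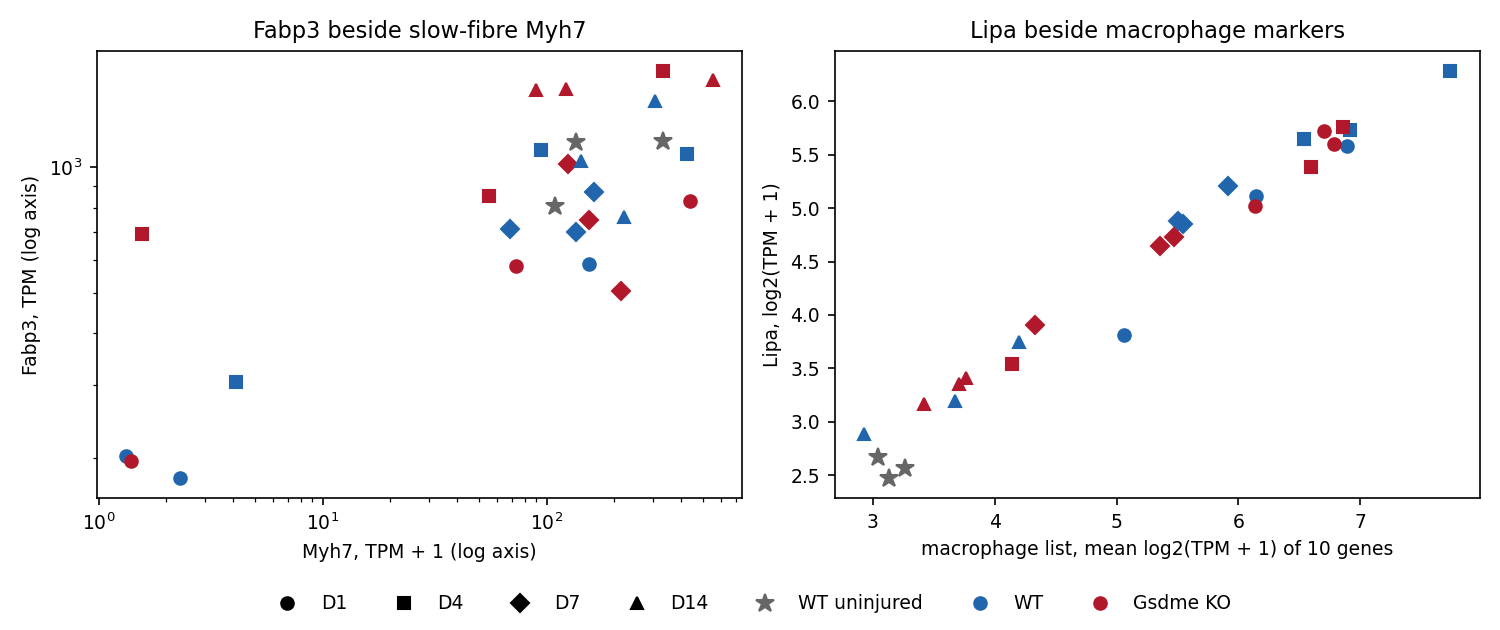
Left, Fabp3 (TPM) against the slow-fiber myosin gene Myh7 (TPM + 1), both on log axes, with 1 point per library. Right, Lipa against the mean of 10 macrophage genes, both as log2(TPM + 1). Libraries with Myh7 at 0.33 to 3.12 TPM lie at the left edge with Fabp3 between 180 and 690 TPM, and on the right libraries of D14 and uninjured muscle lie at the lower left and those of D4 at the upper right except KO D4 replicate 2.

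During regeneration, the triglyceride lipase and its anchor had their highest means on different days in WT muscle on the TPM scale, an order that was not kept for the anchor after median-of-ratios scaling. Lpl stayed at 64.2, 61.2 and 67.3 TPM in WT D4 muscle, was at 117, 115 and 118 TPM on D7, and reached 223, 119 and 185 TPM on D14. All D7 libraries were above all D4 libraries, and all D14 above all D7, but neither step was called (0.85 ± 0.41, adjusted p = 0.155, and 0.54 ± 0.41, adjusted p = 0.300). On the TPM scale Gpihbp1 had its highest mean on D7. It was at 41.9, 54.8 and 63.5 TPM in WT D4 muscle, at 103, 112 and 128 TPM on D7, and at 60.8, 90.2 and 94.7 TPM on D14. The step from D4 to D7 was called (1.10 ± 0.28, adjusted p = 0.0199), and the step to D14 was not (-0.49 ± 0.28, adjusted p = 0.160, with a difference of 0.09 after median-of-ratios scaling and -0.12 after quantile normalization). Within libraries, the log2 ratio of Lpl to Gpihbp1 was 0.04 ± 0.14 (SD) in WT D7 and 1.07 ± 0.74 in WT D14 muscle. Over the 8 injured groups, TPM of Lpl ranged 3.30-fold, from WT D4 to KO D14, and that of Gpihbp1 2.14-fold, from WT D4 to WT D7.

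Fabp4, like Gpihbp1, rose between D4 and D7 in WT muscle. It was at 298, 239 and 171 TPM in WT D4 and 386, 442 and 455 TPM in WT D7 muscle, without overlap (0.89 ± 0.27, adjusted p = 0.0384). With Gpihbp1, 2 of 8 members were called at this step, beside 12.3% of all genes. Both calls were lost without some libraries. Gpihbp1 was not called without WT D4 replicate 1 or WT D7 replicate 2 or 3 (adjusted p from 0.0743 to 0.109), and Fabp4 was not called in any of the 6 fits that left out a WT D4 or WT D7 library (adjusted p from 0.0515 to 0.130). The endothelial list of 10 genes was at a mean log2 level of 5.28 ± 0.19 on WT D4 and 5.70 ± 0.24 on WT D7, and the level of Gpihbp1 relative to that list went from 0.47 ± 0.29 to 1.14 ± 0.09 (SD). The part of endothelial content in these differences was not tested. In KO muscle no member and no other gene was called between D4 and D7 (limma, 0% of genes, 1555 at an unadjusted p under 0.05). Without KO D4 replicate 2, in which Gpihbp1 was at 130 TPM against 52.2 and 46.9 TPM, the KO step was called too (1.08, adjusted p = 0.00412).

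The uptake genes Cd36 and Slc27a1 had their lowest means on different days. Cd36 was lowest on D4 in both genotypes, at 67.7 ± 10.5 TPM in WT and 86.3 ± 24.3 TPM in KO muscle. From D1 to D4 it fell in KO muscle, from 176, 164 and 136 TPM to 85.7, 111 and 62.3 TPM (-0.90 ± 0.25, adjusted p = 0.0199), and was the 1 member called there, beside 19.4% of all genes. That call was lost without KO D1 replicate 1 or KO D4 replicate 3 (adjusted p = 0.0743 and 0.0888). In WT muscle no member was called between D1 and D4, beside 19.8% of all genes, although Fabp3 was called without WT D1 replicate 1 or WT D4 replicate 1 (1.90 and 1.97, adjusted p = 0.0266 and 0.0176), Lipa without WT D1 replicate 2 (1.42, adjusted p = 0.0447) and Cd36 without WT D1 replicate 3 (-0.74, adjusted p = 0.0488). In KO muscle, Acsl1 was called without KO D1 replicate 2 (0.78, adjusted p = 0.0496) and Slc27a1 without KO D4 replicate 2 (-0.77, adjusted p = 0.0300).

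Slc27a1 was lowest on D7. It was at 20.9, 16.9 and 18.7 TPM in WT and 22.9, 20.3 and 16.3 TPM in KO muscle, and by D14 it was at 40.49, 28.7 and 30.1 TPM and 40.55, 63.0 and 49.7 TPM. Both rises were called, with no overlap between days (0.77 ± 0.27, adjusted p = 0.0365, in WT, and 1.31 ± 0.27, adjusted p = 0.0276, in KO). The WT call was lost without WT D7 replicate 1, 2 or 3 or WT D14 replicate 1 or 3 (adjusted p from 0.0704 to 0.122), and the KO call without KO D7 replicate 1 or 3 or any KO D14 library (adjusted p from 0.0656 to 0.167). In WT muscle 2 of 8 members were called from D7 to D14, beside 31.8% of all genes. In KO muscle 1 of 8 was called, beside 0.56% of all genes. There the lipase Lpl (1.23), Cd36 (0.80), Acsl1 (0.95) and Fabp3 (1.10) also had all D14 libraries above all D7 libraries, at adjusted p from 0.0958 to 0.269. Thus 5 of 8 members lay higher on D14 without overlap and 1, Lipa, lay lower. Of all 15718 genes, 861 lay higher and 4039 lower without overlap. TPM values shifted as a whole over these steps. All genes had a median of 0.17, -0.24 and -0.45 in the 3 WT steps and -0.15, -0.15 and -0.19 in the KO steps. The calls over all genes were 2292 higher and 828 lower from D1 to D4 in WT muscle (1822 and 2094 after median-of-ratios scaling), 478 and 1463 from D4 to D7 (928 and 918), 145 and 4855 from D7 to D14 (802 and 1348), and 13 and 75 from D7 to D14 in KO muscle (128 and 309). Each member called in a step kept its direction under both scalings.

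Acsl1 and Fabp3, which serve fatty acid oxidation in fibers, had their lowest means on D1. Acsl1 was lowest on D1 in both genotypes (42.7 ± 10.9 TPM in WT and 47.4 ± 14.3 TPM in KO) and highest on D14 (82.3 ± 26.4 and 118 ± 6.4 TPM). Fabp3 spanned the widest range of the members with fiber expression, 4.85-fold from 323 ± 228 TPM in WT D1 to 1566 ± 48.7 TPM in KO D14. Between neighbors in the order of the 8 group means, 7 of 7 pairs overlapped for Fabp3, Cd36, Slc27a1, Gpihbp1 and Fabp4, 6 of 7 for Lpl and Acsl1, and 5 of 7 for Lipa. The spread within a group reached 70.7% of the mean (SD, Fabp3 in WT D1), as the plot of all libraries shows.

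**Figure D3:**
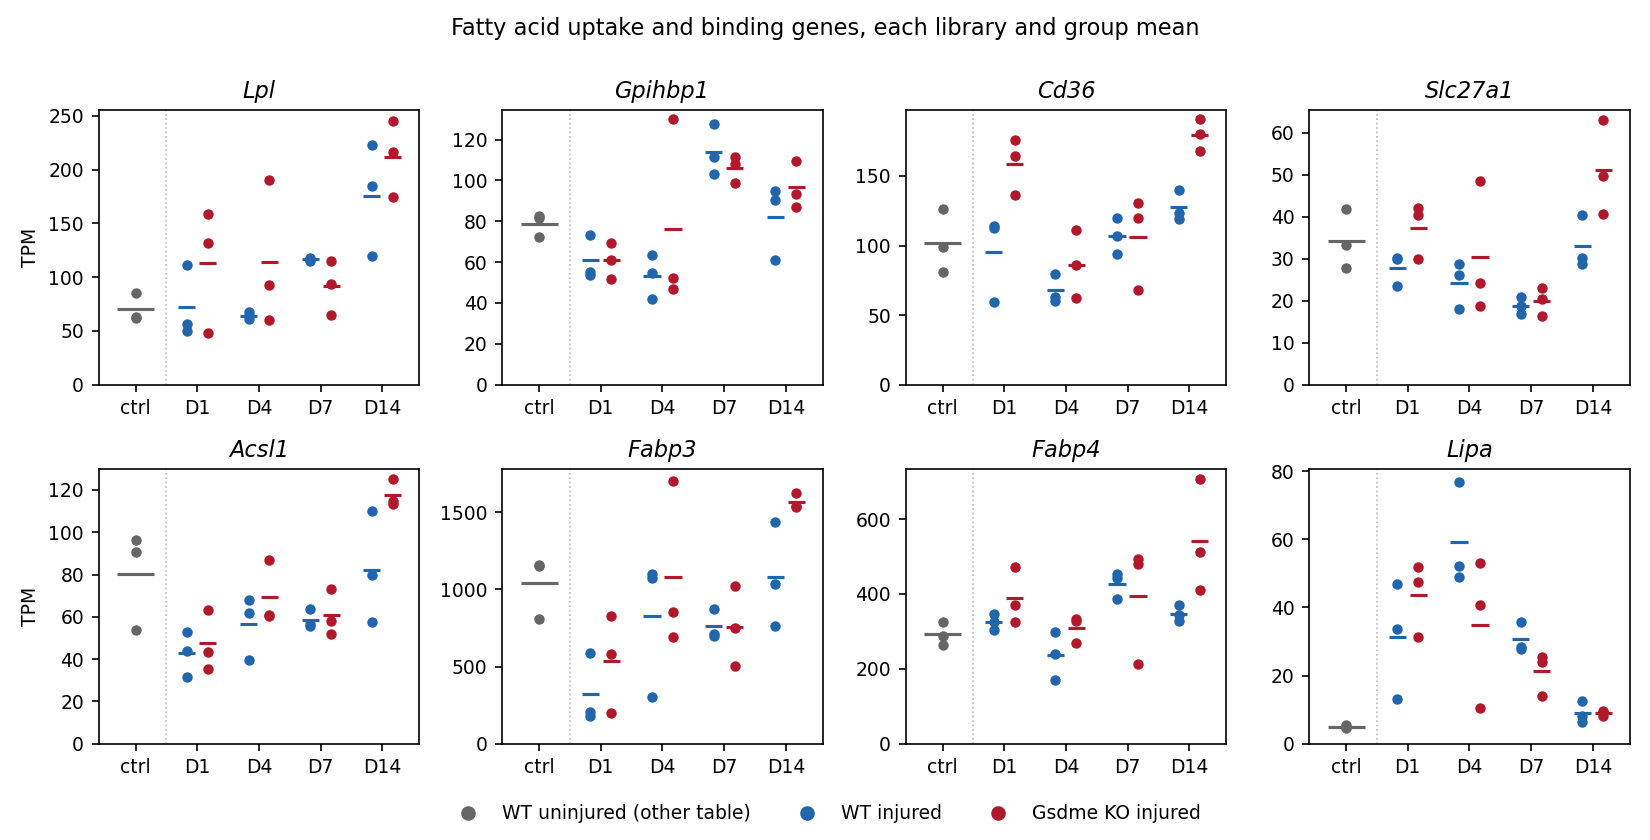
TPM of each member in every library (points) with group means (bars) for uninjured WT muscle (gray, from the other deposited table) and for WT (blue) and Gsdme KO (red) muscle on D1 to D14, n = 3 per group, each axis starting at 0. On D14 Cd36, Slc27a1, Acsl1, Fabp3 and Fabp4 have all 3 KO points above all 3 WT points, and Lipa has its highest mean, 59.3 TPM, in WT D4 muscle.

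Lipa had the widest range of all 8 genes, 6.65-fold. In WT muscle it was at 33.7, 46.8 and 13.0 TPM on D1, 76.9, 52.1 and 49.0 TPM on D4, 35.9, 27.8 and 28.4 TPM on D7, and 8.12, 12.5 and 6.39 TPM on D14. D4 lay above both D1 and D7 in every library. The fall from D7 to D14 was called (-1.70 ± 0.46, adjusted p = 0.0146), but not without WT D7 replicate 1 or WT D14 replicate 3 (adjusted p = 0.0696 and 0.0810). Macrophage markers took the same course. The macrophage list of 10 genes had a summed level of 140 to 178 TPM in uninjured muscle, 1729 to 3702 TPM in WT D4 and 120 to 350 TPM in WT D14 muscle, and Adgre1 was at 138, 85.6 and 63.5 TPM on WT D4 and 7.87, 13.1 and 3.18 TPM on WT D14. Relative to that list, the log2 level of Lipa was -1.20 ± 0.15 (SD) in WT D1, -1.18 ± 0.28 in WT D4, -0.68 ± 0.05 in WT D7 and -0.32 ± 0.24 in WT D14 muscle, and -0.57 ± 0.18 in uninjured muscle. In such bulk samples, fewer cells of a type and less RNA per cell cannot be told apart, and the part of macrophage content in the Lipa differences was not tested.

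The genotypes were then compared on each day to ask whether loss of Gsdme changed these genes. No member was called on D1, D4, D7 or D14, beside 0.00636%, 0%, 0% and 0% of all genes, none was called in the average over days, beside 0.00636%, and none differed between days in its genotype effect, beside 0% (limma). At an unadjusted p under 0.05 there were 1, 1, 0 and 3 members on the 4 days and 2 in the average, against 845, 3568, 481, 324 and 556 of 15718 genes. The median log2 difference of the 8 members was 0.48, 0.34, -0.08 and 0.53 on D1, D4, D7 and D14, and that of all genes was 0.09, -0.28, -0.19 and 0.08. The difference was above 0 in 8, 7, 2 and 8 of the 8 members on the TPM scale.

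On D14, the separation was complete in 5 of the 8 members, beside 7.37% of all genes with every KO library above every WT library. Cd36 was at 140, 119 and 124 TPM in WT and 180, 191 and 168 TPM in KO muscle (0.49 ± 0.25). Slc27a1 was at 0.60 ± 0.27, and the nearest libraries of the genotypes were at 40.49 TPM in WT and 40.55 TPM in KO muscle. Acsl1 was at 110, 57.4 and 79.6 TPM in WT and 115, 113 and 125 TPM in KO muscle (0.56 ± 0.26). Fabp3 was at 1439, 761 and 1035 TPM and at 1622, 1533 and 1543 TPM (0.59 ± 0.54), and Fabp4 at 343, 372 and 329 TPM and at 410, 706 and 513 TPM (0.61 ± 0.27). Each of these 5 differences had an adjusted p of 1 and an exact permutation p of 0.1, the smallest that 3 against 3 libraries allow. Single libraries moved their size. Without WT D14 replicate 2, Acsl1 was at 0.33 and Fabp3 at 0.36, and without WT D14 replicate 1 they were at 0.79 and 0.82. Leaving out KO D14 replicate 2 gave 0.40 for Fabp4 and 0.44 for Slc27a1, whereas leaving out replicate 1 of that group gave 0.79 and 0.76. Lpl (0.30 ± 0.41), Gpihbp1 (0.26 ± 0.28) and Lipa (0.03 ± 0.46) overlapped, and Lipa changed sign with scaling (-0.07 after median-of-ratios scaling).

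Adipocyte genes stood beside these differences. The list of 10 adipocyte genes holds no member. It was at a summed 63.3 to 99.3 TPM in WT D14 and 347 to 1315 TPM in KO D14 muscle. At a group mean of at least 1 TPM were 7 of 10 genes in WT and 10 of 10 in KO D14 muscle. In uninjured WT muscle, quantified separately, the list was at 405 to 525 TPM. The adipokine gene Adipoq was at 2.65, 4.92 and 2.20 TPM in WT and 18.2, 72.2 and 48.9 TPM in KO muscle, and the lipid droplet gene Plin1 at 1.41, 1.98 and 1.12 and at 7.50, 25.1 and 18.9 TPM. Ucp1, the defining gene of brown fat, was at or below 0.25 TPM in every library. The endothelial list was at 565 to 621 TPM in WT and 494 to 679 TPM in KO D14 muscle, and the slow-fiber list at 4826 to 8691 and 4870 to 10436 TPM. On D7 the adipocyte list separated as well, at 103 to 156 TPM in WT and 169 to 258 TPM in KO muscle. Adipoq was at 9.41, 7.41 and 10.1 TPM and at 16.1, 12.2 and 10.9 TPM. The member differences on that day were above 0 in 2 of 8 on the TPM scale. After median-of-ratios scaling Gpihbp1 (0.13), Cd36 (0.18), Slc27a1 (0.29), Acsl1 (0.27), Fabp3 (0.18) and Fabp4 (0.03) were above 0. Lpl (-0.155) and Lipa (-0.32) were below it. The part of these cell types in the member differences was not tested.

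The earlier days differed in which members separated. On D1, Cd36 was at 114, 113 and 59.4 TPM in WT and 176, 164 and 136 TPM in KO muscle, without overlap (0.78 ± 0.25, adjusted p = 0.873), and it was the 1 member that separated upward, beside 3.33% of all genes. The difference was 0.47 without WT D1 replicate 3 and at most 0.94 without another library. Of the markers, the lipid-associated macrophage list of 6 genes was at a summed 1369 to 3896 TPM in WT and 4426 to 6017 TPM in KO D1 muscle. Pecam1 was at 78.4, 74.1 and 46.2 TPM and at 89.1, 79.2 and 93.2 TPM, and both were without overlap. Cdh5 overlapped, at 75.7, 62.6 and 43.1 TPM in WT and 79.7, 71.9 and 90.8 TPM in KO muscle. So did the summed endothelial list (450 to 678 and 647 to 674 TPM) and macrophage list (526 to 1788 and 1139 to 1726 TPM). The part of these cell types in the Cd36 difference was not tested, and batch cannot be told apart from genotype on D1. On D4 all 8 members overlapped, beside 14% of genes that separated in either direction. The lowest p on D4 was that of Lipa, at 76.9, 52.1 and 49.0 TPM in WT and 53.1, 10.6 and 40.8 TPM in KO muscle (-0.99 ± 0.46, adjusted p = 0.215). Without KO D4 replicate 2, the library low in Adgre1, that difference was -0.31. On D7 Lpl (117, 115.00 and 118 TPM in WT, 114.87, 64.9 and 93.9 TPM in KO) and Lipa (35.9, 27.8 and 28.4, and 25.6, 14.0 and 24.01 TPM) separated downward, 2 of 8 beside 14.6% of all genes. In D7 muscle Adgre1 had a lower mean in KO too, at 39.5, 33.6 and 42.2 TPM in WT and 33.8, 16.5 and 33.0 TPM in KO, and overlapped. KO D7 replicate 2, the lowest library in Lpl and Lipa, stood apart from the other KO D7 libraries, with the macrophage list at 364 TPM against 823 and 719 and Myh4 at 9085 TPM against 4568 and 4594.

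**Figure D4:**
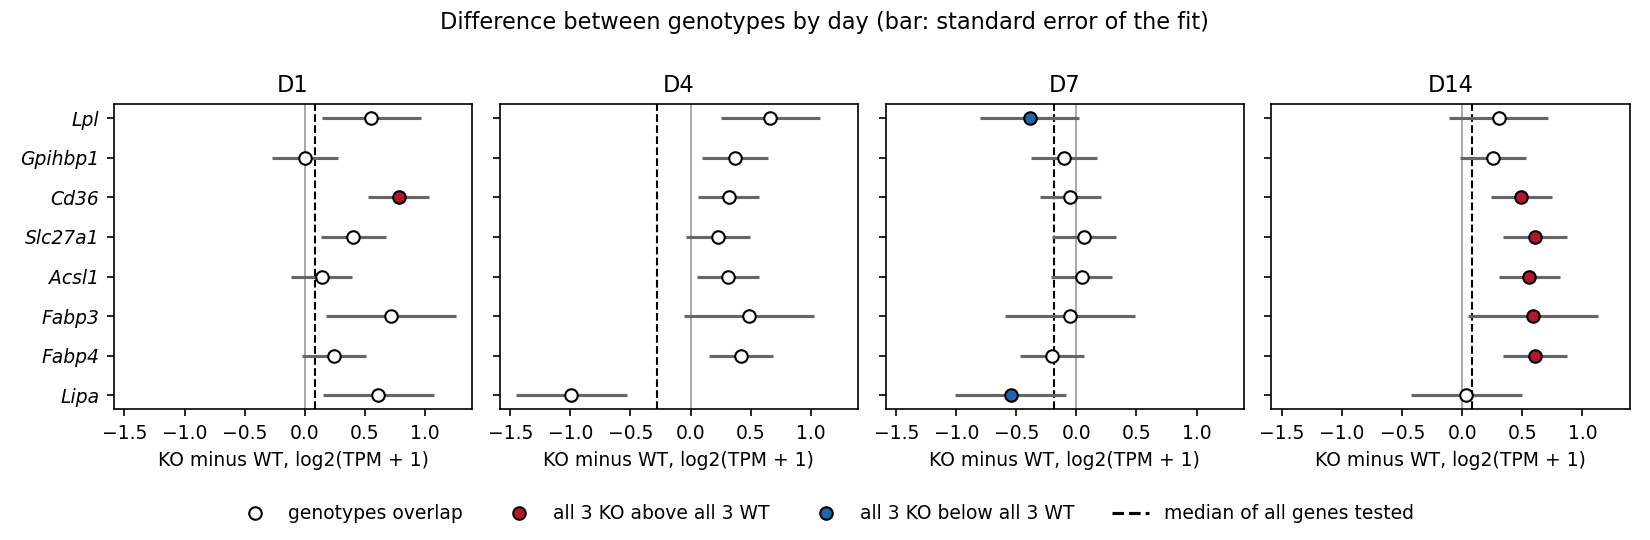
KO minus WT of each member on D1, D4, D7 and D14 (log2(TPM + 1), n = 3 per genotype, bars are standard errors of the fit). Filled points mark genes whose 3 KO libraries all lay above (red) or below (blue) the 3 WT libraries, and dashed lines are the median of all genes at 0.09, -0.28, -0.19 and 0.08. On D14 5 points are red, and on D4 none is filled.

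Averaged over the 4 days, the difference was largest relative to its error for Cd36 (0.38 ± 0.13, adjusted p = 0.861). Its exact permutation p within days was 0.0103 over 160000 assignments, with no adjustment for the 8 members tested in this way. The largest daily difference of Cd36 was on D1 (0.78), where batch cannot be told apart from genotype. KO means of Cd36 were higher on 3 of 4 days. Slc27a1 had an average of 0.33 ± 0.13 (exact permutation p = 0.0261) with higher KO means on 4 of 4 days. The other 6 members had exact permutation p from 0.0591 (Acsl1) to 0.437 (Lipa). With libraries weighted by quality, the average for Cd36 was called (0.53, adjusted p = 0.0292), the 1 of its 31 alternatives that did so.

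To see whether KO shifted the members against each other or against the cells that carry them, 7 ratios were formed within libraries. None passed the test over the 4 days. The averages of KO minus WT on the log2 scale were -0.17 for Fabp4 to Fabp3, 0.10 for Cd36 to Lpl, 0.15 for Lpl to Gpihbp1, -0.06 for Acsl1 to Slc27a1, 0.08 and 0.22 for Gpihbp1 and Fabp4 to the endothelial list, and 0.09 for Lipa to the macrophage list, with exact permutation p from 0.177 to 0.677 and p adjusted over the 7 ratios of 0.677 for each. On D14, Fabp4 relative to the endothelial list was 3.27 ± 0.22 (SD) in WT and 3.80 ± 0.26 in KO muscle, without overlap (exact permutation p = 0.1, adjusted 0.7). The log2 ratio of Fabp4 to Fabp3 was -1.81 ± 0.44 in uninjured muscle, 0.23 ± 0.93 in WT D1 and -1.58 ± 0.52 in WT D14 muscle (values with no test).

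Levels on D14 were set beside those of uninjured WT muscle without a test, since they stand in separately made tables. The WT D1 libraries, which both tables hold, differed by at most 1.07% for any member. These are the same libraries quantified again, so that gap says nothing of sequencing batch. The study describes separate batches for the control comparison and the time course, so batch cannot be told apart from the differences given here. Lpl was above every control library in both genotypes, at 2.51 times the control mean in WT and 3.04 times in KO muscle, and Lipa likewise at 1.82 and 1.80 times. In WT muscle Gpihbp1, Slc27a1, Acsl1 and Fabp3 had means from 0.965 to 1.04 times control, with overlap, Cd36 was at 1.25 times with overlap and Fabp4 at 1.19 times without. In KO muscle Cd36 was at 1.76 times, Fabp4 at 1.86, Fabp3 at 1.51, Acsl1 at 1.47 and Gpihbp1 at 1.23 times control without overlap, and Slc27a1 at 1.49 times with overlap. Adipoq was at 23.1 to 32.4 TPM in the control libraries.

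Other genes of the pathway were read as 4 lists, whose counts depend on the scale. Beside these counts, 61.1% of all genes were called on WT D1 on the TPM scale, with 7229 of 13041 higher and 736 lower. From D1 to D4, 19.8% were called in WT and 19.4% in KO muscle, and from D4 to D7 12.3% in WT muscle. From D7 to D14 in WT muscle 31.8% were called, with 145 of 15718 higher and 4855 lower. Of 18 listed regulators of lipoprotein lipase and lipoprotein receptors 12 were tested, and on WT D1 7 rose and 2 fell (median 1.07, against 0.66 for all genes), or 3 and 2 after median-of-ratios scaling. The lipase activator Apoc2 rose most (4.50, from 0.177 to 36.3 TPM), and Apoc1 fell (-1.76). From D1 to D4 in WT muscle, Pcsk5 (1.28) and Lmf1 (0.54) rose and Vldlr, a receptor for triglyceride-rich lipoproteins, fell (-1.10), 2 and 1 in all, or 1 and 3 after median-of-ratios scaling. From D4 to D7, Apoc2 (-2.77) and Angptl4 (-1.88), an inhibitor of lipoprotein lipase, fell from 21.0 to 1.90 TPM and from 68.8 to 18.4 TPM, Vldlr rose (1.13), and 1 gene rose and 4 fell in all (median -0.74, against -0.24), or 1 and 5 after scaling. From D7 to D14 6 of 12 fell (none after scaling, when 1 rose), led by the receptor gene Lrp1 (-1.12) with Furin (-0.95) and Lmf2 (-0.91). In KO muscle from D1 to D4, 1 rose and 2 fell, among them Pcsk6 (1.37) and Apoc2 (-3.44), or 2 and 5 after median-of-ratios scaling and 3 and 4 after quantile normalization.

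Of 21 other uptake and binding genes, 11 were tested on WT D1. There 6 rose and 2 fell (median 0.72, against 0.66), or 1 and 3 after median-of-ratios scaling. Among all genes, 7229 of 13041 rose and 736 fell at that step on the TPM scale. Fabp5, the epidermal and macrophage binding protein, rose from 22.5 to 203 TPM (2.97), the synthetase gene Acsl5 by 1.35 and Slc27a3 by 1.12. From D7 to D14, 7 of 13 fell in WT muscle (2 after scaling), beside 4855 of all 15718 genes on the TPM scale. Fabp5 (-1.89), Slc27a3 (-1.22) and the caveolin gene Cav1 (-1.01) were in the lead, while the member Slc27a1 rose. From D1 to D4, Dbi (0.65) and Slc27a6 (0.64) rose in WT and Fabp5 fell in KO muscle (-2.12), where 2 rose and 1 fell after median-of-ratios scaling against 0 and 1 on the TPM scale.

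Of 11 genes of intracellular lipolysis and the lysosome, 4 rose and 1 fell on WT D1 (median 0.44, against 0.66), or 2 and 5 after median-of-ratios scaling. Beside this list and the next, 7229 of 13041 genes rose and 736 fell on the TPM scale. The lysosomal genes Npc2 (2.13) and Lamp2 (1.44) rose with Lipa, and the monoglyceride lipase gene Mgll fell (-0.70). Tfeb, which is on this list, fell from D1 to D4 in WT muscle (-0.70). At that step the list counted 0 higher and 1 lower on the TPM scale, and 0 and 2 after either scaling. The lysosomal cholesterol exporter gene Npc1 fell from D4 to D7 in WT (-0.86) and from D1 to D4 in KO muscle (-0.92), and Npc2 (-1.40) and Scarb2 (-0.65) fell from D7 to D14 in WT muscle. For that last step the list counted 0 higher and 2 lower on the TPM scale, 1 and 0 after median-of-ratios scaling and none after quantile normalization. Of the 8 genes of PPAR signaling, none rose and 3 fell on WT D1 (median -0.05, against 0.66), or 5 after scaling. The 3 were the fatty acid sensor Ppara from 7.25 to 1.34 TPM (-1.86), the coactivator Ppargc1a (-1.35) and Rxrg (-0.90). On D4 the coactivator Ppargc1b rose relative to D1 in both genotypes (0.87 in WT and 0.78 in KO). In KO muscle Rxrg also rose and Ppard fell (1.46 and -0.44). Rxrb fell from D4 to D7 in WT muscle (-0.49). After either scaling no gene of the list was called in these WT steps, and 2 rose and none fell from D1 to D4 in KO muscle. No gene of the 4 lists was called between genotypes on any day or in the average.

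On D14 the lowest p in each list were those of Apoc1 (1.94 ± 0.54, adjusted p = 0.615), the hormone-sensitive lipase gene Lipe, which is also on the adipocyte list (0.97 ± 0.24, adjusted p = 0.361), Pparg, the adipocyte regulator (0.71 ± 0.28, adjusted p = 1), and the acyl-CoA binding gene Dbi (0.42, adjusted p = 1). On D1 they were Angptl4 (1.16), Fabp5 (1.16), Lipe (0.56) and Rxrg (-0.66), each at an adjusted p of 0.873. On D4 they were Lmf2 (-0.71), Fabp5 (-1.30) and Npc1 (-0.41) at an adjusted p of 0.212, and Ppara (0.79) at 0.256. On D7 they were Angptl4 (0.76), Dbi (-0.34), Lipe (0.44) and Rxrg (0.40) at an adjusted p of 0.776. In the average over days they were Lipe (0.59, adjusted p = 0.223), Apoc1 (1.04, adjusted p = 0.651), Acsl6 (-0.16) and Pparg (0.17), both at 0.861.

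Finally, the genes whose course over the 24 injured libraries was most like each member were listed, by the root mean square (RMS) difference of centered log2(TPM + 1) values among 9625 genes with a mean of at least 5 TPM. Lpl was nearest to Fgf1, Dgat2 and Phyh (RMS 0.23 to 0.29). Acsl1 was nearest to the beta-oxidation genes Acadm and Eci1 and to the peroxisomal gene Pex11a (0.14 to 0.19), and Acadm was the nearest gene of any member. Cd36 was nearest to the endothelial genes Flt1, Epas1 and S1pr1 (0.27 to 0.30), Gpihbp1 to Ndufb2, Ndufb4 and Slc9a3r2 (0.24 to 0.26), and Slc27a1 to Lipe, Retsat and Mgst1 (0.31 to 0.34). Fabp3 was nearest to Fndc5, Apol6 and Slc25a34 (0.33 to 0.39), Fabp4 to genes that included Hibch and Crim1 (0.27 to 0.28), and Lipa to Rab31, Ppib and Eef1a1 (0.158 to 0.164). Among the members themselves, the closest pair was Cd36 and Fabp4 (0.34). A flat course would give an RMS equal to the member's own SD over these libraries. That SD was 0.71 for Lpl, 0.48 for Gpihbp1, 0.51 for Cd36, Slc27a1 and Acsl1, 0.92 for Fabp3, 0.43 for Fabp4 and 1.005 for Lipa. The libraries share composition and injury stage, and the likeness is a description.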

How the data were processed

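The authors deposited TPM for each gene and library in 2 tables, 1 with the 24 injured libraries and 1 with the 3 control and the 3 WT D1 libraries, beside the gene length in bases and group means that were not used. Per the labels, libraries were prepared from total RNA with a SMARTER kit and sequenced in pairs on an Illumina instrument, and the submitters' processing notes name the mouse build mm10. The aligner, the counting tool and the use of strand were not given in the sources used here. TPM carries no read number, so depth is unknown and no counting interval was computed. The study describes separate sequencing batches for the control comparison and the time course, and the labels give none. Whether WT D1 belongs to one or the other is not stated, so batch cannot be told apart from injury or from genotype on D1. The same holds for the step from D1 to D4 in WT muscle and for D14 levels set beside uninjured muscle. Nothing in the labels ties libraries to separate animals beyond the sample titles, so that p-values measure the spread between these samples.

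The sample titles gave each group and replicate number. Values were analyzed as log2(TPM + 1), on which fold changes of low genes are understated. Genes with at least 1 TPM in at least 3 libraries were tested with limma 3.58.1 (R 4.3.3): a mean per group, moderated errors with a trend, and the Benjamini-Hochberg adjustment over all genes of a comparison, 15718 in the injured table and 13041 in the control table. The code was tested on simulated data. Single values and ratios within libraries were compared by exact two-sided permutation of genotype within days. The 8 genes, the pathway lists and the marker lists were chosen with earlier results of these data known. From each pathway list, up to 3 called genes with the largest difference per comparison are named, and, between genotypes, the gene of each list with the lowest p. The 3 genes nearest to each member in course and the marker genes are named too. A few genes that this rule selects are not reported here. Same-numbered libraries deviated together, with r over 0.1 in every pair, in 2 of 11 comparisons (KO D1 with D4 and KO D4 with D7). For control with WT D1, which may share mice, r was 0.061, 0.041 and 0.002. A fit with the replicate number as a block was therefore an alternative. The other alternatives were a pseudocount of 0.1, no filter, a filter of 5 TPM, median-of-ratios scaling, quantile normalization, library quality weights, only the compared groups in the fit, and leaving out each library.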

Additional observations from a re-analysis of the deposited data

How the results depend on the processing

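Of the 9 member differences called, 2 stayed called under every alternative, the rise of Lipa and the fall of Fabp3 on D1. No called difference changed sign. The counts of called members that moved by over 1.5 times were these. After median-of-ratios scaling they were 6 of 8 for WT D1 against control, 1 for WT D1 to D4, 0 for KO D1 to D4 and 2 for KO D7 to D14. After quantile normalization they were 5 for WT D1 against control and 2 for KO D7 to D14. With library quality weights, which called up to 10845 of all genes, they were 5 for WT D1 against control, 1 each for the genotype average and WT D1 to D4, 6 for WT D4 to D7, 5 for WT D7 to D14 and 6 for KO D7 to D14. Without a filter they were 1 for WT D4 to D7, 1 for WT D7 to D14 and 0 for KO D7 to D14. With only the compared groups in the fit they were 0 for KO D1 to D4 and for KO D7 to D14. Smaller moves were the gain of Cd36 for WT D4 to D7 after both scalings (3 called) and for WT D7 to D14 after median-of-ratios scaling (3), that of Fabp4 there with only the compared groups (3), and the loss of Acsl1 for WT D1 against control without a filter (2).

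Leaving out 1 library gave 2 to 3 called members for WT D1 against control, 0 to 1 for WT D1 to D4, WT D4 to D7, KO D4 to D7 and KO D7 to D14, 0 to 2 for WT D7 to D14 and KO D1 to D4, and 0 in every genotype comparison. With the replicate number as a block, the same number of members was called in every comparison (3 for WT D1 against control, 2 for WT D4 to D7, 2 for WT D7 to D14, 1 for KO D1 to D4 and 1 for KO D7 to D14, 0 elsewhere).

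Values that changed sign were not called to begin with. For WT D1 against control they were Lpl (0.64) and Cd36 (0.10) with quality weights and Fabp4 after median-of-ratios (-0.63) and quantile (-0.21) scaling, and without 1 library Lpl ran from -0.38 to 0.19 and Cd36 from -0.29 to 0.18. For KO against WT, Lipa was among them, on D14 at -0.0705 and -0.0817 after the 2 scalings and -0.16 to 0.27 without 1 library, and its average was 0.0842 with quality weights. Without 1 library, the averages of the ratios of Fabp4 to Fabp3 (-0.3115 to 0.0315), Cd36 to Lpl (-0.0029 to 0.18) and Acsl1 to Slc27a1 (-0.1543 to 0.0076) also crossed 0. Among other values that crossed 0 were, after median-of-ratios scaling, KO against WT on D7 for Gpihbp1 (0.13), Cd36 (0.18), Fabp3 (0.18) and Fabp4 (0.03) and on D1 for Gpihbp1 (-0.12), WT D7 to D14 for Gpihbp1 (0.09) and Fabp4 (0.30), and, with quality weights, KO against WT on D4 for Fabp3 (-0.19). Over all 96 member differences, 28 changed sign under some alternative. The causes were not tested.

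The number of genes called among all genes also moved. Quality weights called 10595 against 1941 for WT D4 to D7, 9503 against 5000 for WT D7 to D14, 7861 against 88 for KO D7 to D14, 278 against 0 for KO D4 to D7, and 533 and 51 against 0 between genotypes on D7 and D14. Median-of-ratios and quantile scaling called 2150 and 2173 for WT D7 to D14, 437 and 448 for KO D7 to D14, and 19 and 23 for KO D4 to D7, and quantile scaling called 5289 against 7965 for WT D1 against control. With only the compared groups, 1163 against 3120 were called for WT D1 to D4, 908 for WT D4 to D7, 7940 for WT D7 to D14, 52 against 3049 for KO D1 to D4 and 7 for KO D7 to D14, and without a filter 47 for KO D7 to D14. Between genotypes, the other settings called at most 21 genes. Without 1 library the counts ran from 210 to 1598 for WT D4 to D7, 286 to 4177 for WT D7 to D14, 1096 to 3980 for KO D1 to D4, 0 to 1375 for KO D4 to D7, 10 to 381 for KO D7 to D14 and 0 to 26 between genotypes. Depth is unknown and limits low genes most.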
